A study of Mus musculus with 8 samples.

Results

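The 10 genes described here encode Toll-like receptors of mouse neutrophils and the proteins that work beside them, namely the co-receptors Cd14 and Ly96, the receptors Tlr1, Tlr2, Tlr4, Tlr6, Tlr7, Tlr9 and Tlr13, and the adaptor Myd88. They were chosen by gene name from the deposited table of raw read counts. All 10 were among its 55450 genes, and all 10 were among the 15975 genes that passed the filter on low counts. Neutrophils had been sorted by flow cytometry on surface CD71, the transferrin receptor, into a CD71- and a CD71+ fraction. They came from brain tumours, for which the labels name the mouse glioma line SB28 as the cell source, or from cultures, for which the labels name naive bone marrow as the tissue and in vitro generation of the neutrophils. Each of the 4 groups (culture CD71-, culture CD71+, tumour CD71- and tumour CD71+) held 2 libraries. No transgene, drug or altered allele was named for any group. The sources used here do not give the strain or age of the mice, the age of the tumours, any pooling of animals or the other surface markers of the sort.

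Toll-like receptors recognise molecules of microbes and of damaged cells. Tlr4 binds bacterial lipopolysaccharide together with its secreted partner Ly96 (MD-2), after Cd14 has handed the lipid over. Tlr2 recognises bacterial lipopeptides as a pair with Tlr1 or with Tlr6. Tlr7, Tlr9 and Tlr13 sit in endosomes and bind single-stranded RNA, CpG-rich DNA and bacterial ribosomal RNA. Myd88 carries the signal of all of these receptors to kinases that activate NF-kB. In neutrophils these receptors prolong survival and trigger cytokine release.

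The genes lie on 7 chromosomes of mm10 (GENCODE M21). The lipopolysaccharide receptor genes are Cd14 (ENSMUSG00000051439.7, chromosome 18, 36725067 to 36726798), Tlr4 (ENSMUSG00000039005.13, chromosome 4, 66827584 to 66930284) and Ly96 (ENSMUSG00000025779.10, chromosome 1, 16688051 to 16709611). The lipopeptide receptor genes are Tlr2 (ENSMUSG00000027995.10, chromosome 3, 83836272 to 83841767) and the neighbours Tlr1 (ENSMUSG00000044827.10, chromosome 5, 64924679 to 64933563) and Tlr6 (ENSMUSG00000051498.6, chromosome 5, 64952031 to 64960097). The endosomal receptor genes are Tlr7 (ENSMUSG00000044583.13, chromosome X, 167304929 to 167330558), Tlr9 (ENSMUSG00000045322.10, chromosome 9, 106222598 to 106226883) and Tlr13 (ENSMUSG00000033777.4, chromosome X, 106143204 to 106160493). The adaptor gene is Myd88 (ENSMUSG00000032508.8, chromosome 9, 119335934 to 119341411). Its exons share 290 bases with Acaa1a on the opposite strand, and since the strand setting of the counting was not given, its counts are uncertain to that extent.

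Total counts ran from 9598959 to 22615813 per library. All 20 mature neutrophil marker genes had counts in every library, and 1 of them, Csf3r, the G-CSF receptor gene, stood at 312 CPM or more. The 20 genes did not move alike between tumour and culture. Their log2 differences (tumour over culture) ran from -2.56 to 9.28 in CD71- and from -2.49 to 8.39 in CD71+. Tfrc, which encodes CD71, had log2 differences between CD71+ and CD71- of -0.65 (SE 0.19, adjusted p = 0.0134) in the tumour and 0.033 (SE 0.19, adjusted p = 0.940) in culture, so the transcript did not follow the sort on surface protein and fractions are called by their labels. Scaled on mature neutrophil genes the tumour difference of Tfrc turned positive (0.26, adjusted p = 0.418), and it missed the threshold with total counts (0.769) and without tumour CD71- replicate 1 or either of the CD71+ tumour libraries (0.0518, 0.0700 and 0.0519). CPM is a gene's count relative to its library size after TMM scaling, which sets the bulk of genes equal between libraries. The quasi-likelihood test of edgeR gave the log2 differences, their standard errors (SE) and the p-values, adjusted by Benjamini-Hochberg over the 15975 genes, and 0.05 was the threshold for passing. Whether the samples of a group came from different animals or cultures was not labelled. The p-values therefore reflect the spread between libraries alone, and that spread may be technical.

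Tlr1 and Tlr6 are close copies, and their shared sequence bears on how reads could be assigned. Of the 3332 different 50-base words in Tlr1 transcripts, 513 (15.4%) also occurred in transcripts of another gene, 454 of them in Tlr6. Within the coding sequence the longest identical run was 229 bases. It is shown here with 20 further bases on each side, read from GENCODE M21 transcripts, 5′ to 3′ on the minus strand, with the bases that differ in capitals. The Tlr1 stretch lies at chr5:64925517-64925785 and the Tlr6 stretch at chr5:64953808-64954076 of mm10, both in coding exons.
Tlr1: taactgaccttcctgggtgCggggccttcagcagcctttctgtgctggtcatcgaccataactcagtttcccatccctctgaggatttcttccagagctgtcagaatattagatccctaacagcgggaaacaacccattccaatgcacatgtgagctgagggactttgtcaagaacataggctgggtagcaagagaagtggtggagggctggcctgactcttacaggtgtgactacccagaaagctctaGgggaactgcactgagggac
Tlr6: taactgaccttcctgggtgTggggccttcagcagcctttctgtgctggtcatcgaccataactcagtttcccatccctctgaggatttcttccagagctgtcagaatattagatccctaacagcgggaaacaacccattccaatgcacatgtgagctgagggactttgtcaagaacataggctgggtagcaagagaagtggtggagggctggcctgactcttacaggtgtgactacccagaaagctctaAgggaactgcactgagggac
A read that falls wholly inside this run cannot be placed on either gene. Tlr1 had 12 to 67 counts in the culture libraries, which was 3.10% to 7.32% of the Tlr6 count, and 532 to 592 counts in the tumour libraries, 21.4% to 29.3% of the Tlr6 count. The Tlr1 share was thus higher in every tumour library, and how reads of the shared run were assigned was not tested.

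Within each group the levels of the 10 genes were ordered per length, as TPM from counts and summed exon length. Cd14 was the highest in all 4 groups, at 345 to 378 TPM in culture CD71-, 822 to 844 in culture CD71+, 6605 to 6786 in tumour CD71- and 4050.2 to 5799 in tumour CD71+. Tlr2 came second in all 4 groups per exon length. Its lowest and highest values in tumour CD71+ were 591 to 711 TPM, clear of Tlr13 at 318 to 376, but in culture CD71- the ranges of Tlr2 and Tlr13 overlapped. Tlr4 and Tlr13 held places 3 and 4, and their ranges overlapped in every group. Myd88 held place 5 in culture, ahead of Tlr6, and place 6 in the tumour, behind it. Tlr1 was the lowest of all in culture, at 1.02 to 1.46 TPM in CD71- and 2.08 to 3.42 in CD71+, and stood above Ly96 and Tlr9 in the tumour, at 55.8 to 58.6 and 48.5 to 56.6. Tlr9 was the lowest in tumour CD71- at 6.26 to 6.67 TPM, and Ly96 in tumour CD71+ at 8.36 to 18.3. Some of these places depend on the length used. Per coding length in place of exon length, Cd14 remained first in all 4 groups, but Tlr2 was second in tumour CD71+ alone, with Tlr4 second in the other groups and Tlr2 at place 3 or, in culture CD71-, place 5. Myd88 then stood ahead of Tlr6 in the tumour as well, and 6 of the 10 genes kept their place in each group.

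**Figure D1:**
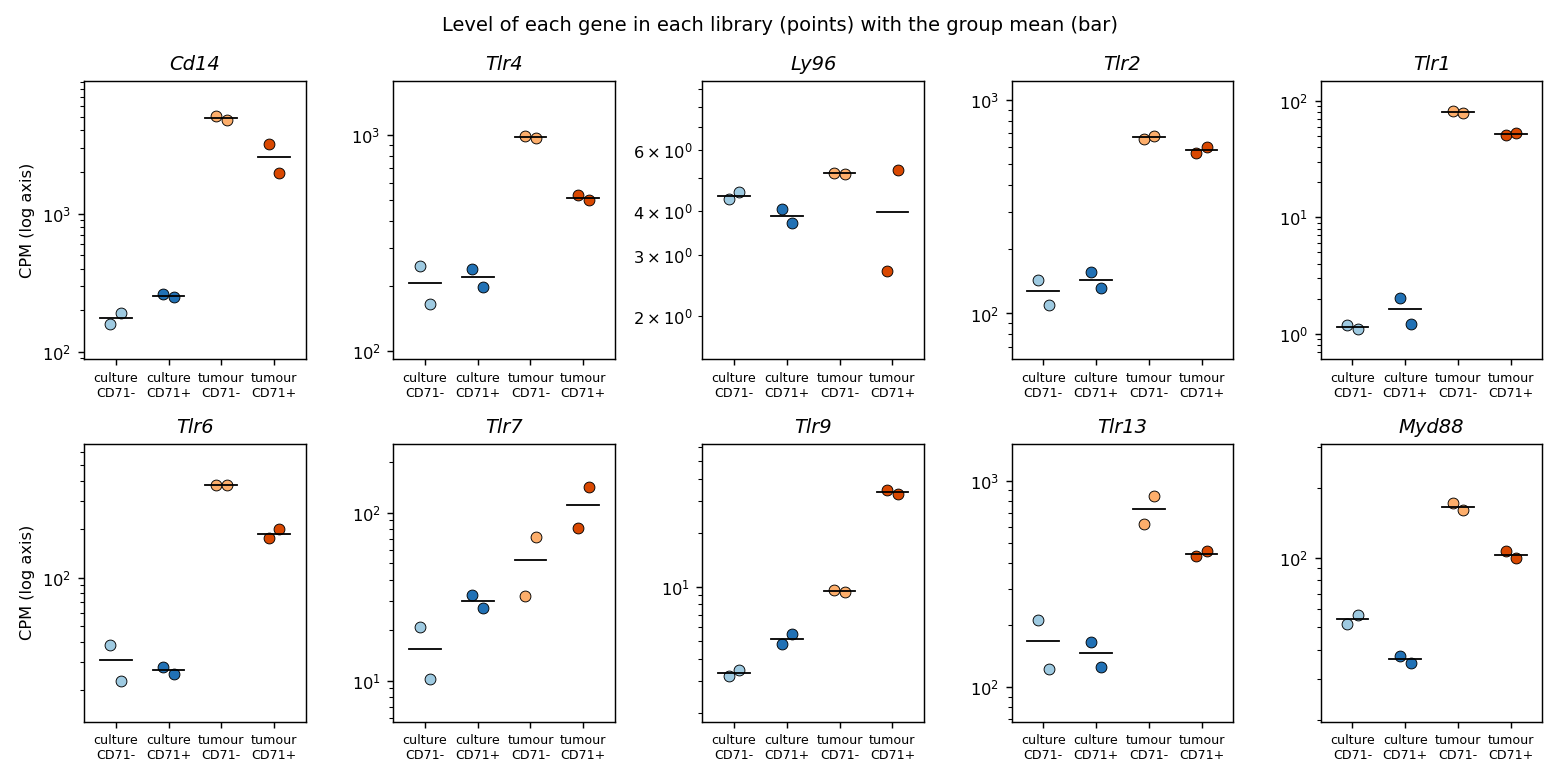
Level of each of the 10 genes in each of the 8 libraries, in CPM on a log axis that differs between panels, with 1 point per library and a bar at the mean of the 2 libraries of a group. Within a fraction the tumour libraries lie above the culture libraries for every gene except Ly96 in CD71+, and within the tumour Tlr7 and Tlr9 are the genes whose CD71+ libraries both lie above the CD71- libraries.

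The comparison of tumour with culture asked how receptor expression differs between neutrophils in a tumour and neutrophils made in vitro. In the CD71- fraction 9 of the 10 genes were higher in the tumour and none was lower, where 30.3% of all genes tested were called higher and 36.8% lower. In the CD71+ fraction again 9 were higher and none lower by edgeR's test, against 30.3% higher and 27.6% lower of all genes. The differences were largest for Tlr1, Cd14 and Tlr6, and Ly96 did not pass in either fraction. The median log2 difference of the 10 genes was 2.19 in CD71- and 1.97 in CD71+, beside -0.28 and -0.085 for all genes tested. In each fraction the same 9 had an unadjusted p under 0.05, all of them higher, and DESeq2's Wald test called 9 higher and 0 lower. The 2 comparisons share no library. Tumour and culture also differ in tissue, preparation and the cells a sort could admit, and these cannot be told apart from origin here. In bulk libraries fewer expressing cells and less RNA per cell cannot be told apart either. Of 20 mature neutrophil genes 14 rose and 2 fell in the tumour in each fraction (summed level 10135 to 10990.1 CPM in culture CD71- and 37819 to 39616 in tumour CD71-). The macrophage and monocyte list (16 genes) had 10 rises and 3 falls in CD71- and 11 rises in CD71+, and of 10 microglia genes 7 rose and 1 fell in CD71- and all 10 rose in CD71+. The summed macrophage and monocyte level was 1300.1 to 1358 CPM in culture CD71- and 1191 to 1236 in tumour CD71-. In CD71+ it was 1801 to 2244 in culture and 4869.6 to 5453 in the tumour. Of 10 glioma and neural genes 8 were tested, and 6 rose in CD71- and 7 in CD71+, with no falls. Their summed level was 99.2 to 102 CPM in culture CD71- against 135 to 144 in tumour CD71-. In CD71+ it was 78.7 to 92.7 against 131 to 226 CPM. Of that list Sox2, Olig2, Gfap, Slc1a3, Ptprz1 and Fabp7 were at 0 counts in all 4 culture libraries, so its other genes made up the culture level. Mitochondrial transcripts took 7.09% and 12% of counts in culture CD71- but 0.413% and 0.202% in tumour CD71-, and 1.45% and 2.17% in culture CD71+ against 0.829% and 1.04% in tumour CD71+. The part of these markers and of the mitochondrial share in the results was not tested.

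These directions depended on the scaling only for some genes. With total counts, which moved the median of all genes by -0.93 in CD71- and -0.67 in CD71+, Tlr7 and Tlr9 no longer passed in CD71- (log2 differences 0.81 and 0.59, adjusted p = 0.176 and 0.0690), while the other 7 genes did, and in CD71+ all 9 did. Scaled on 20 mature neutrophil genes (shifts of -1.48 and -1.49), 6 genes were higher in CD71- and 5 in CD71+, beside 2098 and 2108 of all 15975 genes. Ly96 was then lower in both (-1.27 and -1.45, adjusted p = 0.0121 and 0.00396), and Tlr4 in CD71+ turned to -0.25 (adjusted p = 0.328). Of all calls, 45.1% were higher in CD71- with TMM, 25.3% with total counts and 17.1% scaled on neutrophil genes; in CD71+ the shares were 52.3%, 29.3% and 16.6%. Tlr7 also missed the threshold without culture CD71- replicate 2 in the CD71- fraction (adjusted p = 0.0908), and without culture CD71+ replicate 1 or 2 in the CD71+ fraction (0.0610 and 0.0859).

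**Figure D2:**
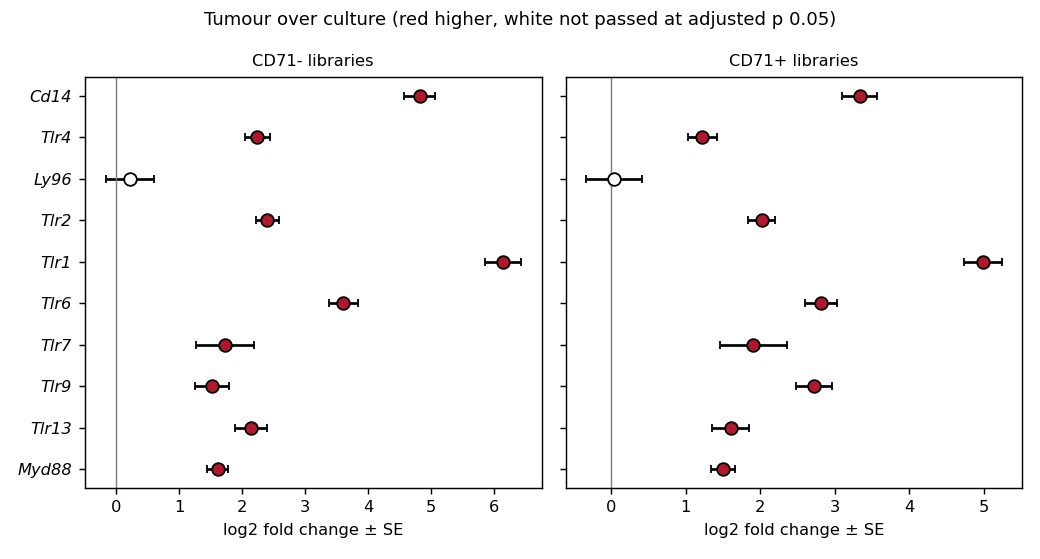
Log2 fold change of tumour over culture for the 10 genes in the CD71- libraries (left) and the CD71+ libraries (right), with bars of 1 standard error and red points for genes that passed with TMM scaling. Tlr1 (6.14 and 4.99) and Cd14 (4.82 and 3.34) lie farthest to the right, and Ly96 lies near 0; its sign turns negative with total counts and with scaling on neutrophil genes, as that of Tlr4 in CD71+ does with the latter.

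Within the tumour, the comparison was of cells sorted as CD71+ with cells sorted as CD71-. In the libraries labelled CD71+, 6 of the 10 genes were lower with TMM scaling (Cd14, Tlr4, Tlr6, Tlr1, Tlr13 and Myd88) and 1 was higher (Tlr9). Of all genes tested, 17.3% were called lower and 26.2% higher. The median of the 10 genes was -0.66 beside 0.13 for all genes. Tlr9 passed under each of the 4 scalings tried, whereas the 6 falls passed with TMM and DESeq2 size factors alone: with total counts or scaled on mature neutrophil genes 0 of the 10 were lower, and Tlr1, Tlr13 and Myd88 turned slightly positive with the latter (0.29, 0.23 and 0.24). These scalings moved the median of all genes by 0.56 and 0.93, and the share of calls that were higher went from 60.2% to 93.3% and 99.6%, against 47.3% with DESeq2 size factors, where the same 6 genes passed as lower. Without tumour CD71+ replicate 2, 3 of the 10 were lower.

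Markers of other cells moved with these differences. Of 20 mature neutrophil genes 16 fell in tumour CD71+ and none rose, with a median of -1.02, close to the falls of Tlr4, Cd14 and Tlr6, and their summed level was 37819 to 39616 CPM in tumour CD71- and 17767 to 18856 in tumour CD71+. Of 16 macrophage and monocyte genes 14 rose (summed level 1191 to 1236 against 4869.6 to 5453 CPM), and of 10 microglia genes 9 rose (155 to 214 against 931 to 1376 CPM). Of 10 dendritic cell genes 8 were tested and 5 rose (83.7 to 91.2 against 353 to 362 CPM), and of 10 lymphocyte genes 5 were tested and 4 rose (4.16 to 4.19 against 15.8 to 23.8 CPM). Of 10 glioma and neural genes 8 were tested and 4 rose (135 to 144 against 131 to 226 CPM), and of 10 early neutrophil genes 8 were tested and 1 rose (466 to 901 against 431 to 776 CPM). In both tumour CD71- libraries the B cell gene Ms4a1 was at 0 counts, and in both tumour CD71+ libraries Ncr1 of natural killer cells was at 0. The mitochondrial share, given above, was higher in both tumour CD71+ libraries than in both tumour CD71- libraries. The part of these markers and of the mitochondrial share in the results was not tested.

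**Figure D3:**
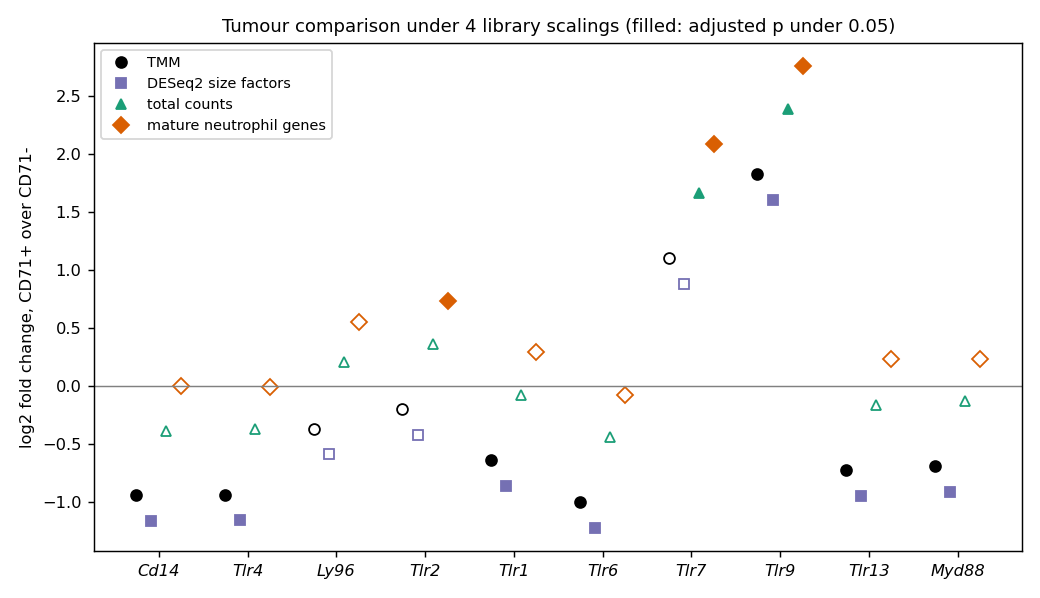
Log2 fold change of tumour CD71+ over tumour CD71- for the 10 genes under 4 library scalings, with filled symbols for an adjusted p under 0.05. The 6 genes that are lower with TMM and with DESeq2 size factors lie between -0.43 and -0.072 with total counts and between -0.073 and 0.29 scaled on neutrophil genes, where none of them passed, Tlr9 lies above 1 with all 4, and Tlr2, Ly96, Tlr1, Tlr13 and Myd88 change sign.

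Few of these genes passed between the culture fractions. Myd88 alone was lower in CD71+ by edgeR's test, and 0 of the 10 were higher, where 8.36% of all genes were called lower and 7.88% higher. The median of the 10 genes was 0.13 beside 0.026 for all genes. At an unadjusted p under 0.05 there were 3 (Myd88, Cd14 and Tlr9), and DESeq2's Wald test called 0 higher and 1 lower. Other scalings gave other counts. With total counts Cd14 and Tlr9 were higher and none was lower, beside 2618 higher and 618 lower of all 15975 genes. Scaled on mature neutrophil genes 8 of the 10 were higher, beside 8640 higher and 186 lower of all genes. The mature neutrophil genes fell between the fractions as well (10 of 20, median -0.67, summed level 10135 to 10990.1 against 4684 to 5914 CPM). The share of all calls that were higher was 48.5% with TMM, 80.9% with total counts and 97.9% scaled on neutrophil genes, with shifts of the median of all genes of 0.31 and 0.93. Of 16 macrophage and monocyte genes 10 rose in culture CD71+ (summed level 1300.1 to 1358 against 1801 to 2244 CPM), and of 10 microglia genes 5 rose (77.5 to 78.1 against 143 to 176 CPM), with Sall1 and Siglech at 0 counts in all 4 culture libraries. The mitochondrial share was lower in both culture CD71+ libraries than in both culture CD71- libraries. Their part in the results was not tested.

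The last comparison tested whether the CD71 difference itself differed between tumour and culture. It did for 3 of the 10 genes, lower in the tumour than in culture for Cd14 and Tlr4 and higher for Tlr9, where 4.71% of all genes were called lower and 10.8% higher. The difference for Cd14 was -1.48 (SE 0.30, adjusted p = 0.00615), and it passed in every alternative tried, among them the 4 scalings and each library left out in turn. That for Tlr4 was -1.02 (SE 0.28, adjusted p = 0.0253), and it missed the threshold with total counts (0.0829), scaled on neutrophil genes (0.0591) and without culture CD71+ replicate 1 (0.115), tumour CD71- replicate 2 (0.0569) or either of the tumour CD71+ libraries (0.0538 and 0.0803). That for Tlr9 was 1.19 (SE 0.35, adjusted p = 0.0354). It missed with DESeq2 size factors (0.0619), scaled on neutrophil genes (0.117), with no filter (0.0614) and by DESeq2's Wald test. It also missed without any 1 library other than culture CD71- replicate 1, and with 1 library left out its value ran from 1.06 to 1.27. Tlr1 (-1.15, adjusted p = 0.0520) and Tlr6 (-0.79, adjusted p = 0.0835) did not pass with TMM but did with DESeq2 size factors (0.0286 and 0.0391). The share of higher genes among all calls was 69.6% under TMM, 52.1% under DESeq2 size factors and 87.4% under total counts. Of the marker lists, 3 mature neutrophil genes of 20 were higher and 3 lower in this test, and 7 macrophage and monocyte genes of 16 were higher and 1 lower; their part in these results was not tested.

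**Figure D4:**
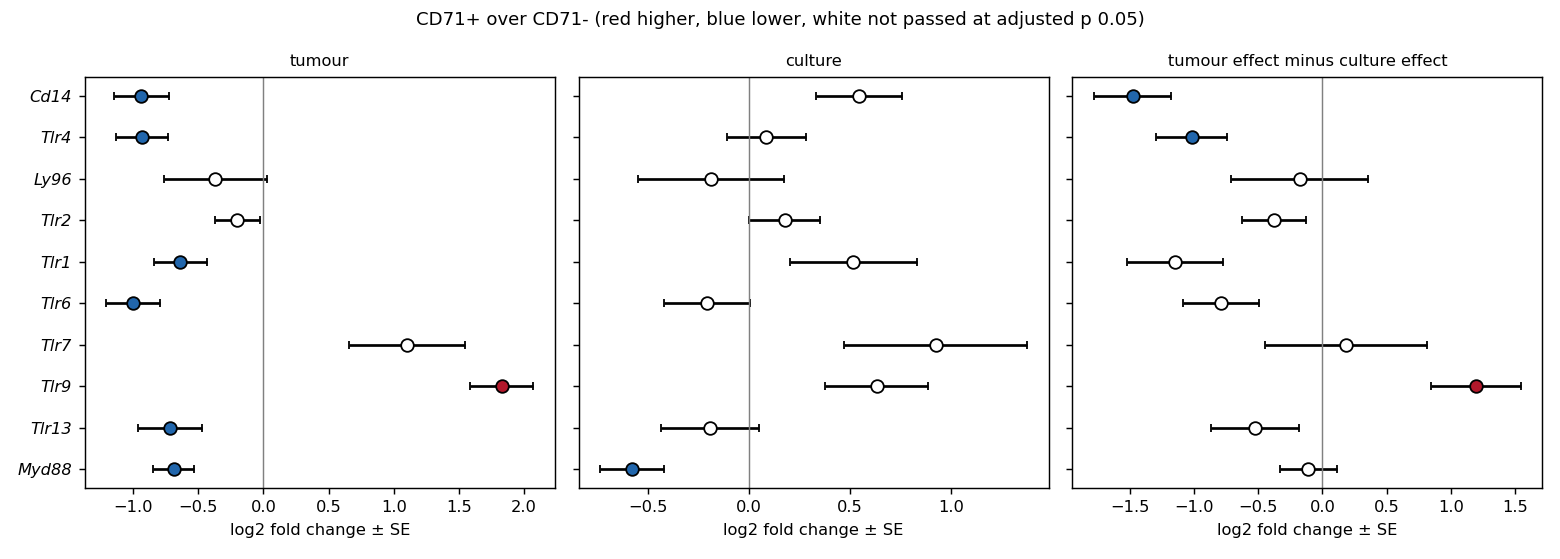
Log2 fold change of CD71+ over CD71- for the 10 genes in the tumour (left) and in culture (middle), and the tumour value minus the culture value (right), with TMM scaling, bars of 1 standard error and coloured points for genes that passed. Cd14 lies at -0.94 in the tumour and at 0.54 in culture, while Tlr9 lies to the right of 0 in both; the blue points of the left panel move to about 0 or above when scaled on neutrophil genes.

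Cd14, the co-receptor that binds lipopolysaccharide and passes it to Tlr4, stood at 159 and 190.5 CPM in culture CD71-, 262 and 248 in culture CD71+, 5071 and 4782 in tumour CD71- and 3173 and 1977 in tumour CD71+. The tumour and culture libraries did not overlap, the tumour CD71- libraries were the highest, and in culture the order of the fractions was the opposite. Cd14 was 28.2-fold higher in tumour than in culture in CD71- (log2 difference 4.82, SE 0.25, adjusted p = 1.4e-09) and 10.1-fold higher in CD71+ (log2 difference 3.34, SE 0.23, adjusted p = 3.4e-08). In the tumour it fell by a log2 difference of 0.94 (SE 0.21, adjusted p = 0.00337) from CD71- to CD71+, a call that missed the threshold without tumour CD71+ replicate 2, the lower of its pair (adjusted p = 0.0549), and that stood at -0.38 with total counts (adjusted p = 0.130) and -0.0023 scaled on neutrophil genes. In culture its log2 difference was 0.54 (SE 0.21, adjusted p = 0.0998), which passed with total counts (0.86, adjusted p = 0.00780), scaled on neutrophil genes (1.47, 4.1e-04) and with no filter (0.60, 0.0124).

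Tlr4, the signalling receptor for lipopolysaccharide, stood at 248 and 165 CPM in culture CD71-, 240.1 and 198 in culture CD71+, 989 and 969 in tumour CD71- and 527 and 498 in tumour CD71+. The culture fractions overlapped, and the tumour fractions did not. Tlr4 was 4.74-fold higher in the tumour in CD71- (adjusted p = 3.9e-07) and 2.34-fold higher in CD71+ (adjusted p = 1.3e-04). In the tumour it fell by a log2 difference of 0.93 (SE 0.20, adjusted p = 0.00210) from CD71- to CD71+, with values of -0.37 with total counts (adjusted p = 0.159) and -0.0035 scaled on neutrophil genes. Ly96, the partner that Tlr4 needs to bind the lipid, was low throughout, with 28 to 133 counts per library. It stood at 4.33 and 4.54 CPM in culture CD71-, 4.06 and 3.70 in culture CD71+, 5.17 and 5.13 in tumour CD71- and 2.70 and 5.28 in tumour CD71+. The 2 tumour CD71+ libraries spanned the whole range of the gene, and no comparison passed (adjusted p from 0.469 to 0.935), except that scaled on neutrophil genes Ly96 was lower in the tumour in both fractions.

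Ratios of 2 genes within a library do not depend on the library scaling, and here they are given as log2 ratios of TPM as a description, with no test. The ratio of Cd14 to Tlr4 was 1.04 and 1.89 in culture CD71-, 1.81 and 2.0 in culture CD71+, 4.04 and 3.99 in tumour CD71- and 4.27 and 3.67 in tumour CD71+. It was higher in every tumour library than in any culture library, and the tumour fractions overlapped. The ratio of Ly96 to Tlr4 was -3.40 and -2.74 in culture CD71-, -3.44 and -3.30 in culture CD71+, -5.13 and -5.12 in tumour CD71- and -5.17 and -4.12 in tumour CD71+, lower in every tumour library. The ratio of Myd88 to Tlr4 ran from -1.57 to -0.43 over the 8 libraries, and in the tumour it was -1.41 and -1.49 in CD71- and -1.20 and -1.21 in CD71+.

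Tlr2, the shared partner of the lipopeptide receptors, stood at 144 and 110.1 CPM in culture CD71-, 156 and 131 in culture CD71+, 659 and 682 in tumour CD71- and 563 and 604 in tumour CD71+. All tumour libraries lay above all culture libraries, with differences of 5.28-fold in CD71- (adjusted p = 6.4e-08) and 4.07-fold in CD71+ (adjusted p = 4.3e-07). Between the tumour fractions Tlr2 did not pass (-0.20, SE 0.17, adjusted p = 0.372), but scaled on neutrophil genes it was higher in CD71+ (0.73, adjusted p = 0.00923), and with total counts its sign was positive as well (0.36, 0.135). In culture its difference was 0.18 (SE 0.18, adjusted p = 0.537).

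Tlr1, which pairs with Tlr2 for triacylated lipopeptides, was low in culture, at 1.19 and 1.09 CPM in CD71- and 2.05 and 1.21 in CD71+, and stood at 82.8 and 79.8 in tumour CD71- and 51.2 and 53.3 in tumour CD71+. Origins did not overlap, and its differences of 70.5-fold in CD71- (log2 6.14, SE 0.29) and 31.7-fold in CD71+ (log2 4.99, SE 0.25) were the largest of the 10 genes under each of the 4 scalings tried, since a scaling moves all genes alike. Within the tumour it fell by a log2 difference of 0.64 (SE 0.21, adjusted p = 0.0234), and the call was lost without any 1 of the 4 tumour libraries (adjusted p from 0.0519 to 0.0921). In culture its difference was 0.52 (SE 0.31, adjusted p = 0.292). Tlr6, the partner for diacylated lipopeptides and the close copy of Tlr1, stood at 38.3 and 22.9 CPM in culture CD71-, 27.9 and 25.3 in culture CD71+, 376 and 374 in tumour CD71- and 175 and 200 in tumour CD71+. The tumour CD71- libraries were the highest and the culture fractions overlapped. Tlr6 was 12.2-fold higher in the tumour in CD71- and 7.05-fold higher in CD71+ (adjusted p = 1.1e-08 and 1.3e-07), and within the tumour it fell by a log2 difference of 1.0 (SE 0.21, adjusted p = 0.00191), or stood at -0.43 with total counts and -0.073 scaled on neutrophil genes (adjusted p = 0.128 and 0.832).

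Within libraries the log2 ratio of Tlr6 to Tlr2 was -2.21 and -2.57 in culture CD71-, -2.79 and -2.68 in culture CD71+, -1.11 and -1.17 in tumour CD71- and -1.99 and -1.90 in tumour CD71+. The tumour CD71- libraries were thus the richest in Tlr6 relative to Tlr2, and the tumour CD71+ libraries lay between them and the culture libraries. The ratio of Tlr1 to Tlr2 was -7.07 and -6.81 in culture CD71-, -6.40 and -6.91 in culture CD71+, -3.14 and -3.25 in tumour CD71- and -3.61 and -3.65 in tumour CD71+, with the same order of the tumour fractions.

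**Figure D5:**
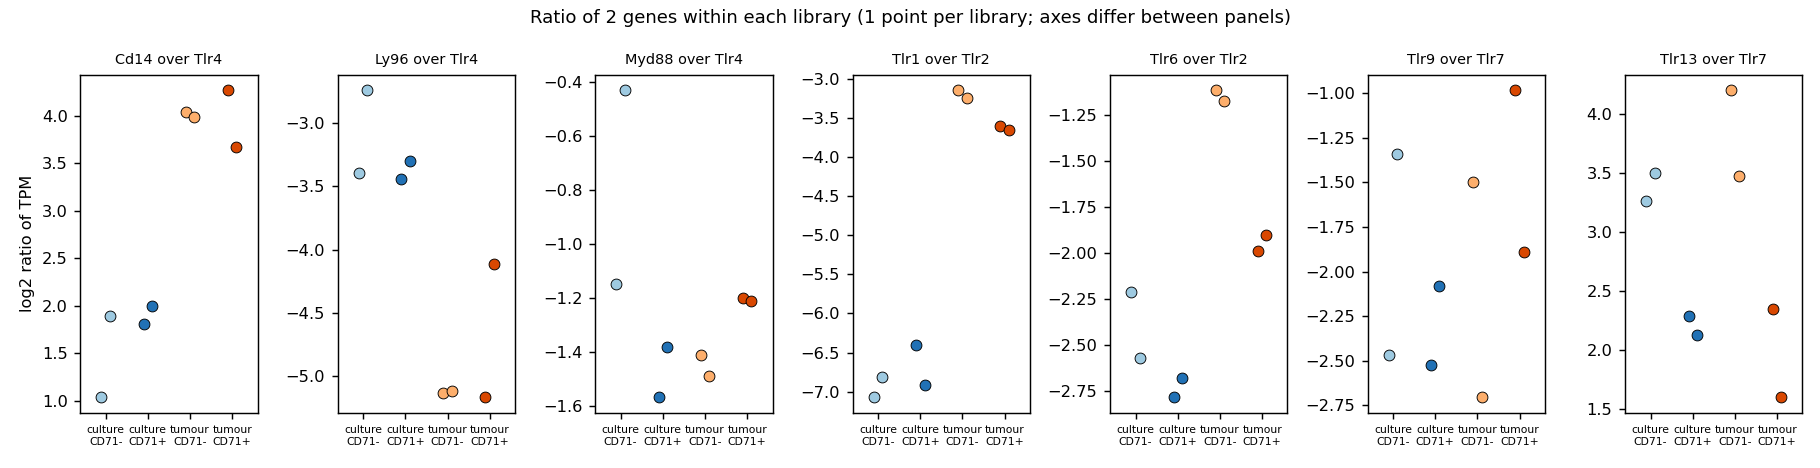
Log2 ratio of the TPM of 2 genes within each library, with 1 point per library and 1 panel per pair, on axes that differ between panels. Tumour and culture libraries separate for Cd14 over Tlr4, Ly96 over Tlr4, Tlr1 over Tlr2 and Tlr6 over Tlr2, and the CD71- and CD71+ libraries of each origin separate for Tlr6 over Tlr2, Myd88 over Tlr4 and Tlr13 over Tlr7, in the case of Myd88 over Tlr4 in opposite directions.

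Tlr9, the endosomal receptor for CpG-rich DNA, stood at 3.20 and 3.45 CPM in culture CD71-, 4.79 and 5.50 in culture CD71+, 9.65 and 9.44 in tumour CD71- and 34.9 and 32.9 in tumour CD71+. The 4 groups did not overlap, and the tumour CD71+ libraries were the highest. It rose 3.55-fold from CD71- to CD71+ in the tumour (log2 difference 1.83, SE 0.24, adjusted p = 9.8e-05), and it passed as higher in every alternative tried, from 1.61 to 2.76. In culture its difference was 0.63 (SE 0.25, adjusted p = 0.109), which passed with total counts (0.94, 0.0246) and scaled on neutrophil genes (1.57, 0.00124). Tlr9 was 2.87-fold higher in the tumour than in culture in CD71- and 6.58-fold higher in CD71+ (adjusted p = 1.8e-04 and 4.1e-07). In CD71- it stood at 1.46 to 1.68 (log2) with 1 library left out. Scaling on neutrophil genes shifted the median of all genes by -1.48, a move about as large as this difference. The rise in tumour CD71+ moved with the macrophage, microglia, dendritic cell and lymphocyte markers given above, and whether it lay in the sorted neutrophils was not tested.

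Tlr7, the endosomal receptor for single-stranded RNA, stood at 20.8 and 10.3 CPM in culture CD71-, 32.4 and 27.3 in culture CD71+, 32 and 72.2 in tumour CD71- and 80.8 and 143 in tumour CD71+. As a ratio, the 2 libraries of a group lay farthest apart in tumour CD71- and closest in culture CD71+, and the fractions did not overlap in either origin. Its difference between the tumour fractions did not pass with TMM (1.10, SE 0.45, adjusted p = 0.0763), and it passed with total counts (1.66, 0.0247), scaled on neutrophil genes (2.09, 1.2e-04), with no filter (1.14, 0.0114) and with tumour CD71- replicate 2 left out (1.70, 0.0179) or with replicate 1 of tumour CD71+ left out (1.46, 0.0441). In culture the difference was 0.92 (SE 0.45, adjusted p = 0.212). Tlr7 was 3.31-fold higher in the tumour in CD71- and 3.75-fold higher in CD71+ (adjusted p = 0.0101 and 0.00613). With 1 library left out these log2 differences ran from 1.16 to 2.38 in CD71- and from 1.39 to 2.24 in CD71+. Scaling on neutrophil genes shifted the median of all genes by -1.48 and -1.49, most of the size of the Tlr7 differences with all libraries.

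Tlr13, the endosomal receptor for bacterial ribosomal RNA, stood at 211 and 122 CPM in culture CD71-, 166 and 125 in culture CD71+, 621 and 842 in tumour CD71- and 432 and 457 in tumour CD71+. The culture fractions overlapped and the tumour fractions did not. It was 4.39-fold higher in the tumour in CD71- and 3.05-fold higher in CD71+ (adjusted p = 8.3e-06 and 1.2e-04). In CD71+ Tlr13 stood at 1.38 to 1.79 (log2) with 1 library left out. Scaling on neutrophil genes shifted the median of all genes by -1.49, a move about as large as this difference of Tlr13. Within the tumour it fell by a log2 difference of 0.72 (SE 0.24, adjusted p = 0.0304), a call lost without tumour CD71- replicate 2 (0.139) or either of the tumour CD71+ libraries (0.117 and 0.0942). The log2 ratio of Tlr13 to Tlr7 within libraries was 3.26 and 3.50 in culture CD71-, 2.28 and 2.12 in culture CD71+, 4.20 and 3.47 in tumour CD71- and 2.34 and 1.60 in tumour CD71+, lower in CD71+ in both origins. The ratio of Tlr9 to Tlr7 was -2.47 and -1.34 in culture CD71-, -2.52 and -2.08 in culture CD71+, -1.5 and -2.70 in tumour CD71- and -0.98 and -1.89 in tumour CD71+. The CD71+ libraries of tumour and culture did not overlap in that ratio, and the fractions overlapped in both origins.

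Myd88, the adaptor shared by the receptors above, stood at 52 and 56.8 CPM in culture CD71-, 37.6 and 35.3 in culture CD71+, 172 and 159.9 in tumour CD71- and 106 and 99.9 in tumour CD71+. The 4 groups did not overlap. In culture it fell by a log2 difference of 0.58 (SE 0.16, adjusted p = 0.0240) from CD71- to CD71+, and the call was lost with total counts (-0.27, 0.275), with no filter (0.0684) and without culture CD71- replicate 2 (0.0569) or culture CD71+ replicate 1 or 2 (0.167 and 0.236), and its sign turned scaled on neutrophil genes (0.35, 0.214). In the tumour it fell by a log2 difference of 0.69 (SE 0.16, adjusted p = 0.00356). Its difference between the effects in tumour and culture was -0.11 (SE 0.22, adjusted p = 0.791). Myd88 was 3.06-fold higher in the tumour in CD71- and 2.83-fold higher in CD71+ (adjusted p = 1.0e-06 and 2.6e-06), and scaled on neutrophil genes neither passed (0.642 and 0.953).

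A list of 45 other genes of the pathway was examined beside the 10, of which 43 passed the filter on low counts (Tlr11 and the adaptor Sarm1 did not). Between origins, 19 rose and 6 fell in the tumour in CD71-, and 20 rose and 7 fell in CD71+, with medians of 0.38 and 0.41, beside the shares over all genes of 30.3% higher and 36.8% lower in CD71- and 30.3% and 27.6% in CD71+. Scaled on neutrophil genes 11 were higher and 25 lower in CD71-, and 12 and 26 in CD71+. Of all 15975 genes 2098 were higher and 10153 lower at that scaling in CD71-, and 2108 and 10626 in CD71+. With TMM, of 7 genes listed as inhibitors (Irak3, Tollip, Sigirr, Tnfaip3, Socs1, Peli1 and Nfkbia) 5 rose in each fraction. Tnfaip3, which encodes the deubiquitinase A20, rose from 137 and 123 CPM in culture CD71- to 6384 and 6202 in tumour CD71-, by 5.60 (SE 0.20, adjusted p = 8.1e-11) on the log2 scale. Nfkbia, the inhibitor that holds NF-kB in the cytoplasm, rose by 4.36 (SE 0.21, adjusted p = 6.1e-10) there, and Ly86, the partner of the receptor Cd180, was higher at 8.95 and 10.3 CPM against 0.534 and 0. Since culture CD71- had 9 and 0 counts of Ly86, the fitted log2 difference of 4.89 rests on very few counts and ran from 4.12 to 10.20 with 1 library left out (lowest without culture CD71- replicate 2, highest without replicate 1). In CD71+ the largest rises were those of Ly86 (5.43), of the endolysosomal protease gene Lgmn (5.02, from 23.1 and 17.5 CPM in culture to 585 and 733 in the tumour) and of Tlr12, which had 0 or 1 count in every culture library and 3.95 and 3.39 CPM in tumour CD71+. Among the falls were Tab1, a subunit of the TAK1 kinase complex (-2.14 in CD71- and -1.55 in CD71+), Ikbkg, the regulatory subunit of the IkB kinase (-1.41 in CD71-), Ticam1, the adaptor TRIF (-1.29 in CD71-), Cnpy3, a chaperone of Toll-like receptors (-1.26 in CD71+), and the feedback inhibitor Socs1 (-1.13 in CD71+; adjusted p = 0.0526 and 0.0806 without culture or tumour CD71+ replicate 2).

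Between the tumour fractions 11 of the 43 genes rose and 13 fell in CD71+ (median -0.14), beside 26.2% higher and 17.3% lower of all genes. Scaled on neutrophil genes 24 of the 43 were higher and 0 lower, beside 8487 higher and 32 lower of all 15975 genes. With total counts 20 were higher and 3 lower, beside 6796 and 486 of all genes. By role, with TMM, 5 of 8 receptors and co-receptors rose and none fell. In the transport and folding list 3 of 6 rose (Ctsb, Unc93b1 and the protease gene Lgmn) and none fell. Cnpy3, Hsp90b1 and Slc15a4 of that list did not pass. Of 3 adaptors tested 2 rose and 1 fell. In the other groups, 4 of 14 kinases and ubiquitin ligases and 3 of 5 transcription factors fell. Of the 7 genes listed as inhibitors 5 fell, Peli1 among them, and 1 rose. The largest rises were those of Tlr12 (0 and 0.416 CPM in CD71- and 3.95 and 3.39 in CD71+), Ly86 (8.95 and 10.3 against 91.2 and 134 CPM, log2 difference 3.55) and Tlr3, the endosomal receptor for double-stranded RNA (0.979 and 1.39 against 8.48 and 17.4 CPM, 3.44). The largest falls were those of Irak3, an inhibitory kinase-like protein (-1.09, SE 0.17, adjusted p = 2.6e-04), Tirap, the bridge between Tlr2 or Tlr4 and Myd88 (-1.06, SE 0.17, adjusted p = 4.2e-04), and the kinase gene Irak2 (-1.04, SE 0.17, adjusted p = 4.7e-04), and none of these falls passed scaled on neutrophil genes (adjusted p = 0.576, 0.697 and 0.710).

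Between the culture fractions 8 of the 43 genes rose and 4 fell in CD71+ (median -0.11), beside 7.88% higher and 8.36% lower of all genes. Scaled on neutrophil genes 30 of the 43 were higher and 0 lower, beside 8640 higher and 186 lower of all 15975 genes. With total counts 14 were higher and 3 lower, beside 2618 and 618 of all genes. Ly86 (3.0), the scavenger receptor Cd36 (2.52, 0.593 and 2.09 against 8.31 and 5.99 CPM) and Tlr3 (1.88, 0.237 and 0.454 against 1.28 and 1.18 CPM) had the largest rises. Without 1 of the culture CD71- libraries in turn, which had 9 and 0 counts of Ly86 and 10 and 23 of Cd36, the log2 differences ran from 2.28 to 8.35 for Ly86 and from 1.79 to 3.58 for Cd36. Tlr3 missed the threshold in 7 alternatives, with adjusted p up to 0.222 without culture CD71- replicate 1. Tlr5, the flagellin receptor (-1.27), and the interferon regulators Irf7 (-1.14) and Irf3 (-0.89) had the largest falls. Scaled on neutrophil genes none of these 3 passed and Irf3 turned to 0.045; without culture CD71+ replicate 2 Tlr5 and Irf3 missed (adjusted p = 0.0656 and 0.0583), and without culture CD71+ replicate 1 Irf7 and Irf3 did (0.0718 and 0.109). The CD71 difference itself differed between origins for 8 of the 43 genes, 4 higher in the tumour (among them Tlr5 at 1.54, Cd180 at 1.46 and Ticam1 at 1.04) and 4 lower, beside 10.8% and 4.71% of all genes (among the lower ones Tlr8 at -0.92, Nfkb1 at -0.90 and Irak2 at -0.78), and each of these 6 missed the threshold without at least 1 library.

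Promoter sequence was examined because 9 of the 10 genes were higher together in the tumour libraries. Also, Tlr9 alone of the 10 passed as higher in tumour CD71+ with TMM scaling, while Tlr7 was higher without passing (log2 difference 1.10). RefSeq promoters of GRCm38.p6, the assembly behind mm10, were at hand for 6 of the 10 genes (8 entries). In the 250 bases before each RefSeq start, 4 motifs were searched on both strands: the kappa B element of NF-kB (GGGA, any 4 bases, then CC), the core of PU.1, a myeloid transcription factor (GAGGAA), the AP-1 element (TGANTCA) and the hypoxia response core (ACGTG or GCGTG). Of 32851 promoters of that length in the table, 17.6% held the first, 23.3% the second, 6.75% the third and 38.6% the last. Those with a match outside the transcribed part are shown 5′ to 3′ in the direction of transcription, without any bases that GENCODE M21 puts inside the gene, and with the matches in capitals. They are Tlr1 at chr5:64933564-64933808 (minus strand), Tlr2 at chr3:83841768-83841858 (minus strand), Tlr9 at chr9:106222348-106222597 (plus strand) and Tlr13 at chrX:106143025-106143203 (plus strand).
Tlr1: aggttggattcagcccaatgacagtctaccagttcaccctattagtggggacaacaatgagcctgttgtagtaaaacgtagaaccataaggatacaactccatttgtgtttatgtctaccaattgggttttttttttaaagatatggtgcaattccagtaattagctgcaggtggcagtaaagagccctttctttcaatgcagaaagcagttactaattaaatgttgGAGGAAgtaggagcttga
Tlr2: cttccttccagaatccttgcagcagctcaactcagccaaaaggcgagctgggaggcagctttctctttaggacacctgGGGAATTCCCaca
Tlr9: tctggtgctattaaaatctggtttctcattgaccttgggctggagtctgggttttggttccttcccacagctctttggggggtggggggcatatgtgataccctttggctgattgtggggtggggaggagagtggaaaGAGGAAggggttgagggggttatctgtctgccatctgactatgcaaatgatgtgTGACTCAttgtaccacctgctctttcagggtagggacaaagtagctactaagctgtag
Tlr13: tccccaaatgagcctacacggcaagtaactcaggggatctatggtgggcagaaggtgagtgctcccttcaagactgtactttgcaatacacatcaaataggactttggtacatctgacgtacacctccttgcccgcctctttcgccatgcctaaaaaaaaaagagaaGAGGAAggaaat
The Tlr2 promoter held a kappa B match that begins 172 bases before the start. PU.1 matches began 23 bases before the start of Tlr1, 112 before that of Tlr9 and 83 before that of Tlr13, and Tlr9 also held an AP-1 match 58 bases before its start. The other entry of Tlr1 held ACGTG once on each strand, as 1 overlapping palindrome, and neither entry of Tlr6 nor that of Myd88 held any of the 4 motifs. A match is a description of these letters and says nothing of binding.

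Among 9772 tested genes with a mean of at least 5 CPM, those with the profile most like each gene were found by Pearson's r of log2 CPM over the 8 libraries, as a description. The 8 points are not independent, since they fall into 2 origins and 2 fractions that all genes share. For Cd14 they were Opa3 (0.9997) and Dusp5 (0.998), for Tlr4 4930523C07Rik (0.998) and Chm (0.997) and for Tlr2 AC132253.7 (0.999) and Ptgs2 (0.998). For Tlr1 they were Utp4 (0.999) and Tmem251 (0.999), and for Tlr6 Jmjd1c (0.999) and Ccr1 (0.999). The endosomal receptors were matched by Srsf6 (0.975) and Tmem106a (0.973) for Tlr7, Epb41l3 (0.997) and Cd72 (0.997) for Tlr9 and Gm42987 (0.994) and Pag1 (0.994) for Tlr13. For Myd88 they were Baz1a (0.998) and Stat3 (0.998). Ly96 had the least close matches, Kctd7 (0.954) and Coq8a (0.892).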

How the data were processed

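RNA was measured in 8 libraries of sorted mouse neutrophils, 2 per group. The labels' protocols list a Zymo Quick-RNA kit and an Illumina stranded total RNA preparation that removes ribosomal RNA. The tools named, per the submitters' processing notes, are cutadapt, FastQC, featureCounts, STAR and DESeq2, with build mm10, and the sources used here give no versions, order or strand setting. The deposited values are whole-number read counts per gene, not normalized, and every row named a gene. All 55450 gene IDs matched GENCODE M21, which gave lengths and coordinates. A count of 0 allows 3 counts, or 0.0916 to 0.419 CPM depending on the library, for counting error only, and the labels name no molecular identifiers.

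The test was run with edgeR 4.0.16 in R 4.3.3: filterByExpr over the 4 groups, TMM factors, 1 model of 4 group means over all 8 libraries, and robust quasi-likelihood F tests for 5 comparisons. The residual degrees of freedom were 4 and the common biological coefficient of variation was 0.19. Alternatives were DESeq2 size factors, total counts, scaling on 20 mature neutrophil genes, DESeq2 1.42.0 in place of edgeR, no filter, at least 50 counts in 2 libraries, the libraries of a comparison alone, a block on the sample number and each library left out. Simulated counts with few changed genes, as many up as down, were put through the same fit. Such counts do not probe the choice of library scaling. The replicates of a group differed by more than counting noise (chi-square per degree of freedom 12.6 to 69.2). The 10 genes, the pathway list, the marker lists and the alternatives were chosen with earlier results of these data known. The text names all 10 genes, Tfrc, up to 3 rises and 3 falls of the pathway list per comparison, the 2 genes most like each of the 10 (log2 of CPM plus 0.25), and any gene a result turns on.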

Additional observations from a re-analysis of the deposited data

Results flagged for a closer look

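The CD71 difference of 3 of the 10 genes differed between tumour and culture by the test of that difference (edgeR's quasi-likelihood test, Benjamini-Hochberg adjustment over 15975 genes). It was lower in the tumour for Cd14 and Tlr4 and higher for Tlr9, where 4.71% of all genes were called lower and 10.8% higher. For Cd14 the log2 difference, tumour minus culture, was -1.48 (SE 0.30, adjusted p = 0.00615): both tumour CD71+ libraries were below both tumour CD71- libraries, and both culture CD71+ libraries were above both culture CD71- libraries. For Tlr4 it was -1.02 (SE 0.28, adjusted p = 0.0253), with overlapping fractions in culture. For Tlr9 it was 1.19 (SE 0.35, adjusted p = 0.0354), with both CD71+ libraries above both CD71- libraries in each origin. The Tlr4 result missed the threshold with total counts and scaled on neutrophil genes. That of Tlr9 missed it with DESeq2 size factors, scaled on neutrophil genes, with no filter and by DESeq2's Wald test. With 1 library left out the values ran from -1.37 to -0.76 for Tlr4 and from 1.06 to 1.27 for Tlr9. Both results missed the threshold when some of these libraries were left out, as given above. Mature neutrophil genes fell in CD71+ in tumour and in culture (16 and 10 of 20, beside 17.3% and 8.36% of all genes). Macrophage genes rose in both (14 and 10 of 16, beside 26.2% and 7.88% of all genes). The part of these markers in the 3 results was not tested. Groups of 2 libraries are too small to flag single libraries.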

How the results depend on the processing

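Of 800 recomputed log2 differences of the 10 genes, 685 kept their direction and their side of the threshold, 50 no longer passed, 29 passed where they had not, and 36 changed sign; the cause was not tested. In the tumour comparison: genes called 6950, but 4495 to 7712 with 1 library left out; of the 10 called higher 1, but 2 with total counts, no filter, replicate block, 3 with scaling on neutrophil genes, 1 to 2 with 1 library left out; of the 10 called lower 6, but 0 with total counts, scaling on neutrophil genes, 3 to 6 with 1 library left out. In the culture comparison: genes called 2595, but 8826 with scaling on neutrophil genes, 826 to 2880 with 1 library left out; of the 10 called higher 0, but 2 with total counts, replicate block, 8 with scaling on neutrophil genes, 1 with no filter; of the 10 called lower 1, but 0 with total counts, scaling on neutrophil genes, no filter, 0 to 1 with 1 library left out. In the difference between them: genes called 2470, but 1525 with scaling on neutrophil genes, 966 to 3609 with 1 library left out; of the 10 called higher 1, but 0 with DESeq2 size factors, scaling on neutrophil genes, the DESeq2 Wald test, no filter, 0 to 1 with 1 library left out; of the 10 called lower 2, but 4 with DESeq2 size factors, the DESeq2 Wald test, no filter, replicate block, 1 with total counts, scaling on neutrophil genes, 1 to 4 with 1 library left out. In tumour against culture in CD71-: of the 10 called higher 9, but 6 with scaling on neutrophil genes and fewer than 9 with total counts. There, of the 10 called lower 0, but 1 with scaling on neutrophil genes. In tumour against culture in CD71+: of the 10 called higher 9, but 5 with scaling on neutrophil genes, and of the 10 called lower 0, but 1 with that scaling. Smaller moves of these counts are mostly not listed. Among them, scaling on neutrophil genes called 8487 genes higher and 32 lower in the tumour comparison. Signs that changed with total counts were Tlr2 0.36, Ly96 0.21 in the tumour comparison; Tlr6 0.093, Tlr13 0.10, Ly96 0.12 in the culture comparison; Ly96 0.085, Myd88 0.14 in the difference between them; Ly96 -0.71 in tumour against culture in CD71-; Ly96 -0.62 in tumour against culture in CD71+. Signs that changed with scaling on neutrophil genes were Tlr1 0.29, Tlr2 0.73, Tlr13 0.23, Ly96 0.55, Myd88 0.24, Tfrc 0.26 in the tumour comparison; Tlr6 0.73, Tlr13 0.74, Ly96 0.73, Myd88 0.35, Irf3 0.045 in the culture comparison; Ly96 -1.27 in tumour against culture in CD71-; Tlr4 -0.25, Ly96 -1.45 in tumour against culture in CD71+. Signs that changed with DESeq2 size factors were Tfrc -0.013 in the culture comparison; Tlr7 -0.0010 in the difference between them. Signs that changed with the DESeq2 Wald test were Tfrc -0.013 in the culture comparison; Tlr7 -0.012 in the difference between them. Signs that changed with no filter were Ly96 -0.081 in tumour against culture in CD71+. With 1 library left out the sign also changed for Ly96 in the tumour comparison (-0.94 to 0.031), Tlr4 in the culture comparison (-0.17 to 0.43), Tlr6 in the culture comparison (-0.52 to 0.24), Tlr13 in the culture comparison (-0.53 to 0.27), Tfrc in the culture comparison (-0.18 to 0.31), Tlr7 in the difference between them (-0.46 to 0.77), Ly96 in the difference between them (-0.77 to 0.21), Ly96 in tumour against culture in CD71+ (-0.57 to 0.42). Over all alternatives, other pathway genes called ran from 6 to 24 higher and 0 to 19 lower in the tumour comparison, 6 to 30 higher and 0 to 6 lower in the culture comparison, 0 to 5 higher and 0 to 10 lower in the difference between them, 11 to 22 higher and 5 to 25 lower in tumour against culture in CD71-, 12 to 22 higher and 4 to 26 lower in tumour against culture in CD71+. Per coding length 6 of 10 genes kept their rank in each group. Sample numbers paired the libraries only weakly (correlations of replicate differences 0.012 in culture and 0.072 in the tumour), so the replicate block is given here only: genes called were 7235, 3213, 3165, 10308 and 8717 in the 5 comparisons in the order above. Between the CD71- groups of tumour and culture that correlation was -0.13, and a crossed block, added after seeing the data, gave 10916 calls. Ly96, with 28 to 133 counts, and Tlr1 in culture, with 12 to 67, are limited by depth. Where a library was left out, its group had 1 library, which was assumed to vary like the others.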
